A study of Mus musculus with 8 samples.

Results

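The cell cycle genes described here are 42 mouse genes that drive, brake or carry out cell division, among 24235 genes measured on the arrays. They were chosen by name, with earlier results of these data known. Each was found through the mouse Entrez ID that the authors' table attaches to its probes: 42 of 42 were found. The cells came from preantral follicles of 8-week-old female Swiss mice, in pools of 5 mice per replicate. The study calls them both granulosa cells, the somatic cells that surround the oocyte, and follicular cells. The share of granulosa cells was not measured here. The cultures had grown for 9 days after dissection, the last of them in medium with charcoal-treated serum and without added steroid. All 4 groups received a transfection of 12 pmol siRNA for 24 h together with a pDsRed plasmid and Lipofectamine. The siRNA was either a control pool or a pool against FOXL2, the forkhead transcription factor that maintains granulosa cell identity. For 10 h before lysis the cells received either 100 nM 17beta-estradiol (E2) or its ethanol vehicle; the labels and the study's text differ on whether these hours fell within or after the siRNA hours. The groups were therefore control siRNA plus vehicle, control siRNA plus E2, FOXL2 siRNA plus vehicle and FOXL2 siRNA plus E2, with 2 one-colour arrays in each. These are short-term cultures of pooled cells, and the knockdown was transient.

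In a dividing cell, D-type cyclins bind the kinases CDK4 and CDK6 and phosphorylate the retinoblastoma protein, which frees E2F factors to switch on cyclin E and the genes of DNA replication. Cyclin A, cyclin B and CDK1 then carry the cell through G2 into mitosis. The INK4 inhibitors hold back CDK4 and CDK6, whereas the Cip/Kip inhibitors act mainly on CDK2. In the ovary, granulosa cells multiply as follicles grow, cyclin D2 is needed for that growth, and E2 is one of its known stimuli.

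The members were sorted by role into 5 G1 cyclins and kinases, 5 G1/S drivers, 6 CDK inhibitors, 9 replication genes of S phase, 7 G2/M drivers and 10 genes of the mitotic machinery. Levels are given as log2 of the scanner intensity after scaling every array to the same 75th percentile, averaged over the probes of a gene. They compare the same gene between arrays, not genes with each other. Of the 42 members, 40 passed the filter on dim genes and were well above background on all 8 arrays. Ccne2, which encodes cyclin E2, and Aurkb, the Aurora kinase of the chromosomal passenger complex, stayed at background on all 8 arrays and were not tested. Changes were tested with limma over 15645 genes, and a gene was called when its Benjamini-Hochberg adjusted p was below 0.05. This main fit did not use the replicate number, and calls with the number as a block are named as such.

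The arrays gave 51.4% to 55.7% of probes well above background, and the 2 arrays of each group correlated at 0.989 to 0.992 over the genes tested. Foxl2 itself did not follow its label at the gene level: its log2 level was 12.8 to 13.5 on the arrays labelled control siRNA and 13.0 to 13.4 on those labelled FOXL2 siRNA. Its 2 probes went apart. The dim one, at 5.48 to 7.00, was lower on all FOXL2 siRNA arrays, with a log2 difference of -0.97 (adjusted p = 0.020). The bright one, at 13.76 to 14.46, was 0.18 higher (adjusted p = 0.36). Since probes were averaged before log2 was taken, the gene level follows the bright probe and hardly registers the dim one. The siRNA groups are therefore named below by their labels. The E2 label had no clear check. Hsd11b2, Tacc1, Angpt2 and Cbs are named by the study as raised by E2, and with control siRNA their direction here is the opposite one. Their mean was lower with E2 in 4 of 4 cases under control siRNA and in 0 of 4 under FOXL2 siRNA, with log2 differences of -2.33 and 1.18 for Hsd11b2 and -2.11 and 1.31 for Cbs. Whether arrays were exchanged was not tested. An exchange of vehicle and E2 under control siRNA would turn the signs of the E2 differences there. It would alter the siRNA differences within each treatment, but leave those over both treatments as they are. The E2 difference over both siRNAs would then measure how the E2 effects differ between the siRNAs. The difference between the E2 effects would instead measure E2 over both siRNAs. Of the granulosa markers, Fshr and Amh were at background on all arrays, as were 7 of 9 oocyte markers. Because these are bulk samples, fewer cells of a type and less RNA per cell cannot be told apart.

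The first question was which cell cycle genes differed between the arrays labelled FOXL2 siRNA and those labelled control siRNA, over both treatments. All 3 D-type cyclin genes and the neighbouring INK4 genes Cdkn2a and Cdkn2b were higher with FOXL2 siRNA, by 1.39-fold to 3.00-fold. The transcription factor gene Foxm1 and the spindle motor gene Kif11 were lower, at 0.681 and 0.708 of the control level. The remaining 33 tested members, among them every replication gene, were not called. Of 40 members tested, 7 were called (17.5%), beside 12.6% of all genes tested in this comparison; 5 were higher, beside 6.39% of all genes, and 2 lower, beside 6.17%. This share lies close to that of the array as a whole, so the count itself does not set the cell cycle genes apart. What varied was where the calls fell: 3 of 5 G1 cyclins and kinases, 0 of 4 tested G1/S drivers, 2 of 6 CDK inhibitors, 0 of 9 replication genes, 1 of 7 G2/M drivers and 1 of 9 tested mitotic genes.

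**Figure D1:**
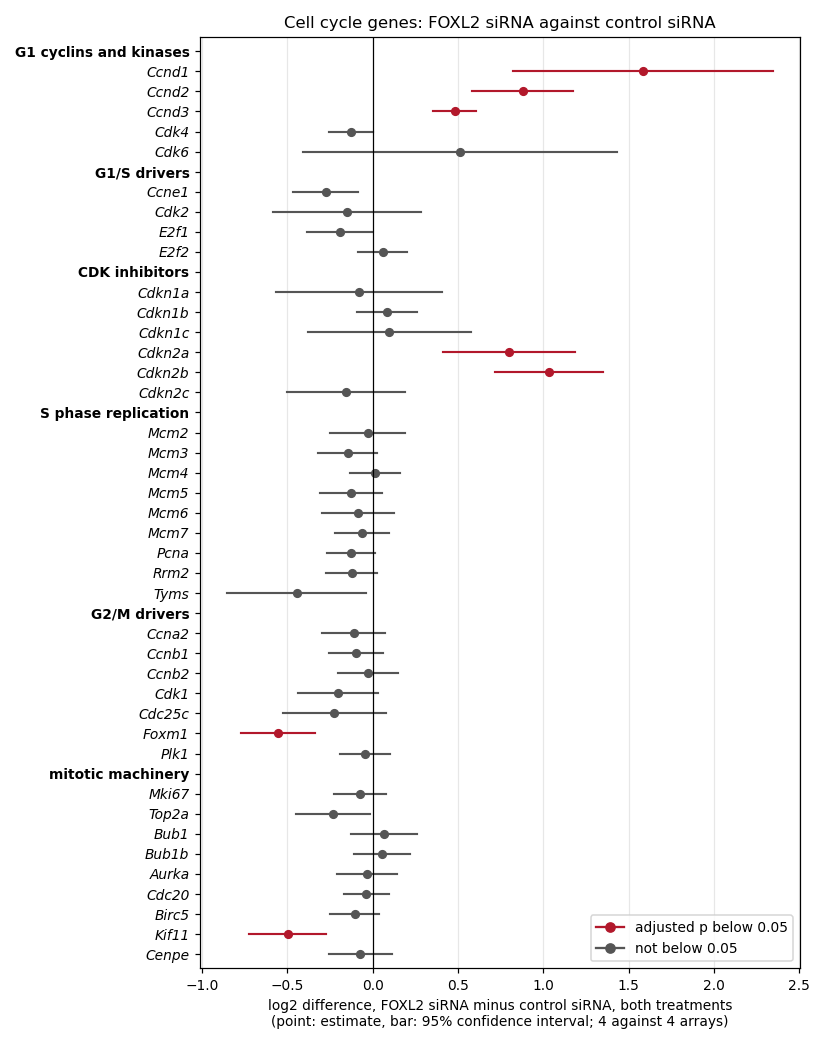
Log2 difference between arrays labelled FOXL2 siRNA and control siRNA over both treatments for the 40 tested members, grouped by role, with points for the estimates, bars for 95% confidence intervals and red for adjusted p below 0.05 (4 against 4 arrays). The 5 called genes to the right of 0 are the D-type cyclin genes and the INK4 genes Cdkn2a and Cdkn2b. The 2 to the left are Foxm1 and Kif11, and the replication genes lie between -0.45 and 0.01.

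Promoter sequence is shown for 4 of these called genes, since Cdkn2a and Cdkn2b are neighbours on one chromosome that rose together, Ccnd3 has the forkhead word near one of its starts, and Kif11 is one of the 2 genes that fell. RefSeq lists a promoter for 33 of the 42 members (assembly GRCm38.p6); none is listed for Ccnd1, Ccnd2 or Foxm1. The 250 bases before the listed starts, except the second of Ccnd3, are printed 5′ to 3′ on the strand of the gene, with motif matches in capitals.
Cdkn2a, first listed start, chr4:89282193-89282442, minus strand: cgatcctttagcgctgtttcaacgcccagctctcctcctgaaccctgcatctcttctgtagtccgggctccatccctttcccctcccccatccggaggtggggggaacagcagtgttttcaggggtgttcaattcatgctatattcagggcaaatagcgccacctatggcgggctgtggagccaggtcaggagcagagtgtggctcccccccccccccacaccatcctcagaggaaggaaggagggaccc
Cdkn2a, second listed start, chr4:89294620-89294869, minus strand: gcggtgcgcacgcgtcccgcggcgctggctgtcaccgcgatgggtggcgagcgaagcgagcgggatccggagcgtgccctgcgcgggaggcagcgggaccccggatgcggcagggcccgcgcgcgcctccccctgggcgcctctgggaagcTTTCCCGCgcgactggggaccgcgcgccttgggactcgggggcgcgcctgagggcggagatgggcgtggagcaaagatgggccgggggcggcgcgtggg
Cdkn2b, chr4:89311033-89311282, minus strand: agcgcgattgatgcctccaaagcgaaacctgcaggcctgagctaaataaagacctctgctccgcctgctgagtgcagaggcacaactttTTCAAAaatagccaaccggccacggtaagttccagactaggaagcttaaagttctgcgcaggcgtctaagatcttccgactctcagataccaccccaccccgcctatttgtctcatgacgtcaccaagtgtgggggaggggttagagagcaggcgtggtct
Ccnd3, first listed start, chr17:47504801-47505050, plus strand: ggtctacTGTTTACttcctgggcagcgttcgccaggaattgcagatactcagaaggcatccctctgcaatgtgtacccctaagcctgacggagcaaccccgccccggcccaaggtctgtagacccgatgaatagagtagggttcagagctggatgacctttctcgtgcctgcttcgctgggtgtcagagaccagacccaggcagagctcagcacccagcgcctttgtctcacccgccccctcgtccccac
Kif11, chr19:37376132-37376381, plus strand: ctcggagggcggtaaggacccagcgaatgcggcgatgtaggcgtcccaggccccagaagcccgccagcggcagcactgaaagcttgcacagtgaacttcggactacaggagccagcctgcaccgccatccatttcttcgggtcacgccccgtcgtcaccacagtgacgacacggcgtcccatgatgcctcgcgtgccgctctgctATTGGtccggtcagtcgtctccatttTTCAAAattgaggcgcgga

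Both Cdkn2a starts lie on the minus strand of chromosome 4, at 28.8 kb and 16.4 kb from the Cdkn2b start. They stand for alternative first exons, from which the gene makes an INK4 inhibitor and the unrelated ARF protein. The Cdkn2a probes were not assigned to either product, so its gene level does not say which of them rose. The capitals in the second Cdkn2a stretch mark an E2F word 99 bases before the start (TTTCCCGC). Those in Cdkn2b mark the cell cycle homology region (CHR; TTTGAA on the other strand), an element of many G2/M gene promoters, 161 bases before the start. Ccnd3 carries a forkhead word (GTAAACA on the other strand) 243 bases before its first start, and its second start, not printed, has a CCAAT box 108 bases before it. Kif11 has both a CCAAT box on the other strand 45 bases before the start and a CHR 19 bases before it.

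The motifs were counted on both strands in windows of 300 bases, 50 of them after the start. The words searched were TTTCCCGC, TTTGGCGC, TTTGCCGC, TTTCGCGC and TTCCCGCC for E2F, TTTGAA for the CHR, CCAAT for the CCAAT box, GTAAACA and ATAAACA for forkhead factors, and GGTCA and TGACC with any 3 bases between them for the estrogen response element; E2F words can overlap one another. E2F words stood in the windows of 8 of 33 members, beside 4.46% of all genes listed. A CHR stood in 12 of 33, beside 20.2%, and a CCAAT box in 25 of 33, beside 41.1%. The forkhead words stood in the windows of 2 members, Ccnd3 and Mcm7, beside 9.01% of all genes, and the estrogen response element in 0 of 33, beside 0.074%. A match describes the letters in a window and says nothing of whether a factor binds there.

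The D-type cyclins had the most members called of any role. Ccnd1 (Entrez 12443), the cyclin D1 gene, stood at 6.45 and 6.61 in control siRNA plus vehicle and at 6.21 and 7.07 in control siRNA plus E2. With FOXL2 siRNA it stood at 7.93 and 8.81 in vehicle and at 7.35 and 8.59 in E2. The lowest FOXL2 siRNA array was above the highest control array, yet the pair of FOXL2 siRNA arrays in E2 lay farther apart than any other pair of one group. In every group replicate 2 read higher than replicate 1. Over both treatments Ccnd1 was 1.58 ± 0.33 (SE) higher on the log2 scale, with a 95% confidence interval of 0.82 to 2.34 (adjusted p = 0.019). The call was lost without replicate 1 of control siRNA plus E2 (1.37, adjusted p = 0.069), replicate 2 of control siRNA plus vehicle (1.62, adjusted p = 0.0504) or replicate 2 of FOXL2 siRNA plus vehicle (1.36, adjusted p = 0.066).

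Ccnd2 (Entrez 12444), the cyclin D of proliferating granulosa cells, was tighter. Its levels were 13.03, 13.07, 12.99 and 13.24 on the control siRNA arrays, and 13.77 and 14.26 in vehicle and 13.72 and 14.09 in E2 with FOXL2 siRNA. All FOXL2 siRNA arrays were above all control arrays, by 0.88 ± 0.13 on average (adjusted p = 0.0044). Ccnd3 (Entrez 12445), which encodes cyclin D3, moved least but with the smallest error. It read between 13.78 and 13.85 on the control siRNA arrays, 14.28 and 14.37 in FOXL2 siRNA plus vehicle, and 14.22 and 14.25 in FOXL2 siRNA plus E2. The difference was 0.48 ± 0.05 (adjusted p = 0.0015). Ccnd2 and Ccnd3 were called without any 1 of the 8 arrays, and the 2 Ccnd3 probes both rose, by 0.44 (adjusted p = 0.010) and 0.50 (adjusted p = 0.0015).

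The kinase partners of the D-type cyclins were not called. Cdk4 was 0.13 lower (adjusted p = 0.19), and all 4 FOXL2 siRNA arrays were below all 4 control arrays, at 14.13 to 14.20 against 14.24 to 14.34. Cdk6 was 0.51 higher, but its arrays spread from 4.27 to 5.59 with control siRNA and from 4.95 to 6.31 with FOXL2 siRNA. Its interval ran from -0.41 to 1.43 (adjusted p = 0.47), which spans both signs.

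Among the CDK inhibitors, the 2 called genes were the adjacent INK4 genes. Cdkn2b (Entrez 12579), which encodes an INK4 inhibitor of CDK4 and CDK6, stood at 8.96 and 9.22 in control siRNA plus vehicle and at 9.26 and 9.38 in control siRNA plus E2. It stood at 10.18 and 10.54 in FOXL2 siRNA plus vehicle and at 9.86 and 10.37 in FOXL2 siRNA plus E2. The groups did not overlap, and Cdkn2b was 2.05-fold higher, or 1.03 ± 0.14 on the log2 scale (adjusted p = 0.0028), a call kept without any 1 array. Both of its probes rose, by 1.06 (adjusted p = 0.0029) and 0.95 (adjusted p = 0.016).

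Cdkn2a (Entrez 12578) read 8.93 and 8.71 in control siRNA plus vehicle, 8.68 and 9.20 in control siRNA plus E2, 9.66 and 10.08 in FOXL2 siRNA plus vehicle, and 9.24 and 9.74 in FOXL2 siRNA plus E2. The highest control array and the lowest FOXL2 siRNA array nearly met. The difference was 0.80 ± 0.17 (adjusted p = 0.019), and of its 2 probes 1 was called (0.80, adjusted p = 0.025) and the other was 0.74 higher (adjusted p = 0.068). The call was lost without replicate 1 of control siRNA plus E2 (adjusted p = 0.064), replicate 2 of control siRNA plus vehicle (adjusted p = 0.065), replicate 2 of FOXL2 siRNA plus vehicle (adjusted p = 0.069) or replicate 2 of FOXL2 siRNA plus E2 (adjusted p = 0.059).

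The Cip/Kip inhibitors and Cdkn2c were not called. Cdkn1a, a p53 target that restrains CDK2, had levels of 11.80, 12.42, 11.61 and 12.28 on the control siRNA arrays and 11.83, 12.27, 11.61 and 12.08 on the FOXL2 siRNA arrays. The low and high values followed the replicate number and not the siRNA. The difference of -0.08 ± 0.21 (adjusted p = 0.85) changed sign when some arrays were left out. Cdkn1b, the inhibitor lost as cells enter the cycle, read 9.68, 9.87, 9.71 and 9.88 with control siRNA and 9.96, 9.97, 9.78 and 9.76 with FOXL2 siRNA. These ranges overlap, and the difference was 0.08 ± 0.08 (adjusted p = 0.55). Cdkn1c and Cdkn2c differed by 0.10 and -0.15, with adjusted p of 0.81 and 0.57.

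**Figure D2:**
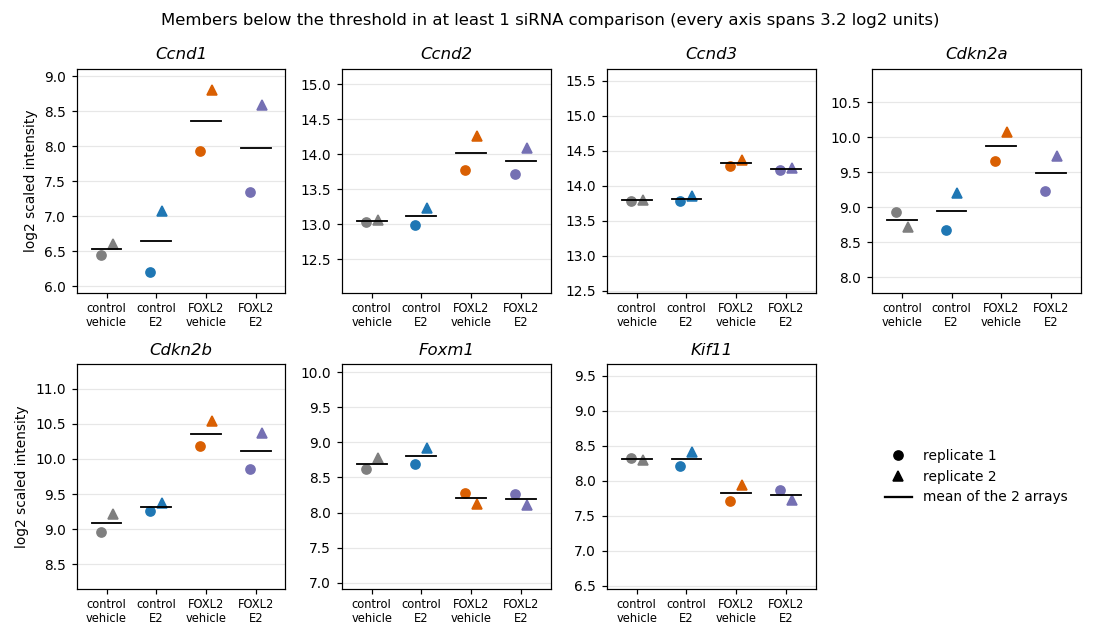
Log2 scaled intensity of the 7 called members on each of the 8 arrays, with circles for replicate 1, triangles for replicate 2 and lines for the mean of the 2 arrays of a group. Ccnd1, Ccnd2, Ccnd3, Cdkn2a and Cdkn2b are higher, and Foxm1 and Kif11 lower, on each of the 4 FOXL2 siRNA arrays than on any of the 4 control siRNA arrays. None was called between the E2 and vehicle groups of one siRNA, where the largest difference was -0.40, for Ccnd1 with FOXL2 siRNA.

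The genes downstream of the D-type cyclins showed no called change at the G1/S boundary. Ccne1, the cyclin E1 gene that partners CDK2, was 0.27 lower (adjusted p = 0.069), with all FOXL2 siRNA arrays (9.83 to 10.05) below all control arrays (10.14 to 10.31). E2f1, an activating E2F factor, was 0.19 lower (adjusted p = 0.18). Cdk2 and E2f2 differed by -0.15 and 0.06. With the replicate number as a block, Ccne1 (adjusted p = 0.012) and E2f1 (adjusted p = 0.028) passed the threshold.

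The replication genes stayed close to their control level. The 9 members of this role include the MCM helicase subunits, the sliding clamp gene Pcna and the nucleotide synthesis genes Rrm2 and Tyms. Their differences ran from -0.45 for Tyms to 0.01 for Mcm4, with a median of -0.12 beside a median of 0.00 over all genes tested, and none was called (0 of 9). Tyms was also the noisiest, with arrays from 5.54 to 6.47 and an adjusted p of 0.15. Pcna read 13.04, 13.15, 13.18 and 13.28 with control siRNA and 13.05, 12.92, 13.09 and 13.08 with FOXL2 siRNA. Its difference of -0.13 ± 0.06 had an interval of -0.27 to 0.01 (adjusted p = 0.23).

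Of the G2/M drivers, 1 was called. Foxm1 (Entrez 14235), the forkhead factor that activates many G2/M genes, read 8.62, 8.77, 8.69 and 8.92 on the control siRNA arrays and 8.28, 8.13, 8.26 and 8.11 on the FOXL2 siRNA arrays. The 2 sets did not overlap, and Foxm1 fell by 0.56 ± 0.09 on the log2 scale (adjusted p = 0.0080), with a call kept without any 1 array. Its 2 probes were lower by 0.57 (adjusted p = 0.013) and 0.45 (adjusted p = 0.077).

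The mitotic kinase and its cyclins did not pass the test. Cdk1 read 7.79, 8.14, 7.95 and 7.97 with control siRNA and 7.64, 7.73, 7.87 and 7.80 with FOXL2 siRNA, a difference of -0.20 ± 0.10 (adjusted p = 0.25). Ccnb1 read 10.13, 9.99, 10.23 and 10.28 against 10.11, 10.00, 10.09 and 10.04, a difference of -0.10 ± 0.07 (adjusted p = 0.41). Both pairs of ranges overlap. Ccna2, Ccnb2, Cdc25c and Plk1, which encode the cyclin of S phase and G2, a second cyclin B, a CDK1 phosphatase and Polo-like kinase, differed by -0.23 to -0.03 without passing the threshold.

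In the mitotic machinery, Kif11 (Entrez 16551), the kinesin that separates the spindle poles, was the 1 called gene. It read 8.33, 8.30, 8.21 and 8.41 on the control siRNA arrays and 7.71, 7.95, 7.87 and 7.73 on the FOXL2 siRNA arrays, which lie below all control arrays. It fell by 0.50 ± 0.10 (adjusted p = 0.014). The call was lost without replicate 2 of control siRNA plus E2 (-0.45, adjusted p = 0.061) or replicate 2 of FOXL2 siRNA plus E2 (-0.46, adjusted p = 0.057).

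Mki67, the proliferation marker Ki-67, read 12.00, 11.88, 11.98 and 12.01 with control siRNA and 11.94, 11.87, 11.98 and 11.80 with FOXL2 siRNA. The ranges overlap, and its interval of -0.23 to 0.08 around -0.07 allows at most a small change (adjusted p = 0.54). Top2a, the topoisomerase of chromosome condensation, was 0.23 lower (adjusted p = 0.15, and 0.040 with the replicate block). Bub1, Bub1b, Aurka, Cdc20, Birc5 and Cenpe, genes of the spindle checkpoint, spindle and kinetochore, differed by -0.10 to 0.07. Over the 25 tested members of the replication, G2/M and mitotic roles, 3 estimates were above 0 and the median was -0.10, with 2 calls (8%) beside the 12.6% of all genes.

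Non-overlap of all 4 arrays against all 4 gave a like picture. FOXL2 siRNA arrays were above control arrays for 5 of 40 members, the 5 called higher, beside 10.1% of all genes. They were below for 5 of 40, namely Cdk4, Ccne1, Tyms, Foxm1 and Kif11, beside 10.7% of all genes. Split by replicate number, replicate 2 was above replicate 1 for 4 of 40, namely Cdk6, Cdkn1a, Mcm2 and Aurka, beside 5.7%, and below it for 0 of 40, beside 5.38%.

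**Figure D3:**
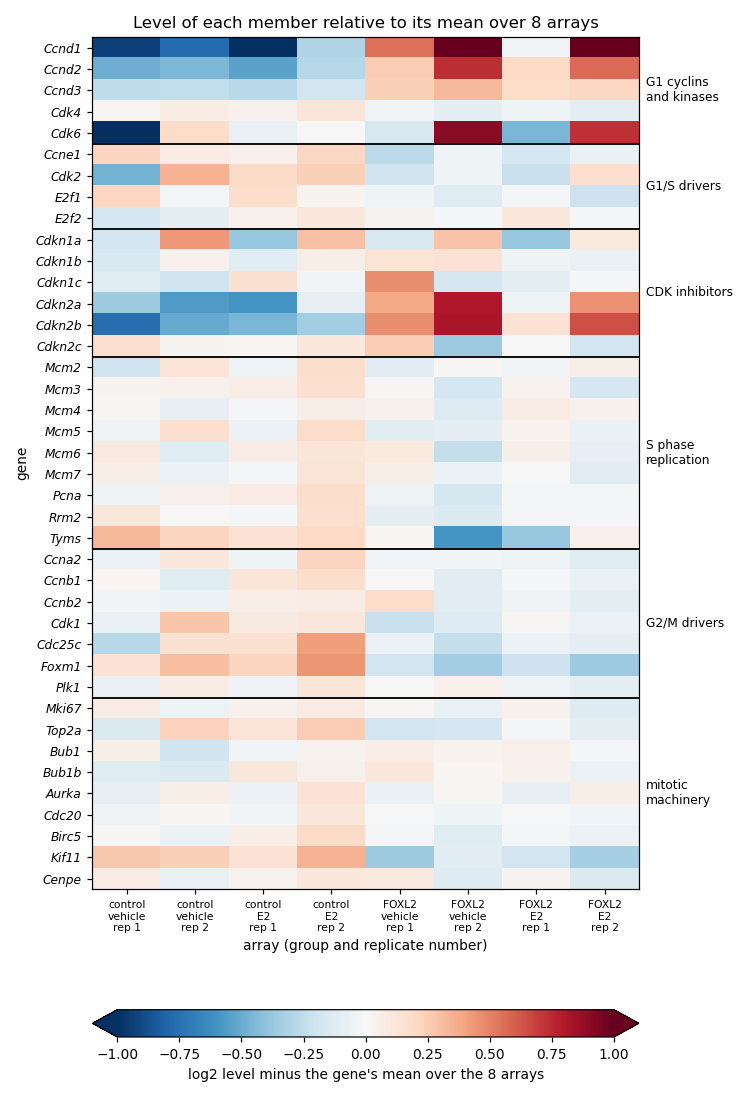
Log2 level of each of the 40 tested members on each array minus the mean of that gene over the 8 arrays, with genes in rows by role and arrays in columns by group and replicate; the colour scale ends at 1 in either direction. The rows of Ccnd1 to Ccnd3, Cdkn2a and Cdkn2b are redder, and those of Foxm1 and Kif11 bluer, in every FOXL2 siRNA column than in any control column, while Cdkn1a alternates with the replicate number.

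The same contrast was then taken within each treatment, as labelled. The contrast over both treatments is the average of these, so they are not a separate check of it. With vehicle, 4 of 40 members were called, beside 6.56% of all genes. All 4 were higher, beside 3.62% of all genes (2.94% were lower): Ccnd2 by 0.97 ± 0.18 (adjusted p = 0.021), Ccnd3 by 0.54 ± 0.08 (adjusted p = 0.0076), Cdkn2a by 1.05 ± 0.24 (adjusted p = 0.041) and Cdkn2b by 1.27 ± 0.19 (adjusted p = 0.0096). Ccnd1 was 1.84 ± 0.46 higher (adjusted p = 0.0605). Foxm1 and Kif11 were 0.49 lower each (adjusted p = 0.074 and 0.085). No member was called without replicate 2 of FOXL2 siRNA plus vehicle, and 2 were called without either control siRNA array in vehicle.

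With E2, 2 of 40 members were called, beside 4.38% of all genes, 1 in each direction, beside 2.25% higher and 2.13% lower. Ccnd3 was 0.42 ± 0.08 higher (adjusted p = 0.023) and Foxm1 was 0.62 ± 0.13 lower (adjusted p = 0.044). Ccnd1, Ccnd2, Cdkn2a and Cdkn2b were higher by 1.33, 0.79, 0.55 and 0.80, with adjusted p of 0.19, 0.056, 0.30 and 0.067, and Kif11 was 0.51 lower (adjusted p = 0.091). The count was 0 without either control siRNA array in E2 or without replicate 2 of FOXL2 siRNA plus E2. It was 1 without replicate 1 of FOXL2 siRNA plus E2 or either control siRNA array in vehicle.

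Blocking on the replicate number raised both counts to 7 of 40: Ccnd1, Ccnd2, Ccnd3, Cdkn2a and Cdkn2b higher and Foxm1 and Kif11 lower in each treatment. The share of all genes called rose as well, to 18.8% with vehicle and 14.9% with E2. Over both treatments the block gave 10 of 40 members, with Ccne1, E2f1 and Top2a added, beside 27.6% of all genes. The siRNA estimates had the same sign in both treatments for all 7 genes. This follows from their levels, since the FOXL2 siRNA arrays of each gene all lay on one side of its control arrays. The same arrays gave the calls by which the genes were picked, so the shared sign is not a separate check. The difference between treatments was called for none of them.

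The second question was whether E2 altered these genes in 10 h. The groups are taken by their labels, so the limit on the E2 label given above holds for every E2 comparison. No member was called with control siRNA, with FOXL2 siRNA or over both (0 of 40 each), beside 0.0192%, 0.0128% and 0% of all genes. At an unadjusted p below 0.05 the members numbered 1, 0 and 0, beside 4.58%, 3.06% and 2.3% of all genes; the 1 was E2f2, 0.21 ± 0.09 higher with control siRNA (unadjusted p = 0.047). With the replicate block the counts were 0 as well, beside 1.16%, 0.614% and 0.0511% of all genes.

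With control siRNA the E2 differences ran from -0.16 for Cdkn1a to 0.44 for Cdk6, with a median of 0.06, and 33 of 40 were above 0. With FOXL2 siRNA they ran from -0.40 for Ccnd1 to 0.15 for Cdk1, with a median of -0.02, and 18 of 40 were above 0. With 1 array left out, 27 of 40 members changed sign with control siRNA and 27 of 40 with FOXL2 siRNA. All members are read on the same arrays, so the counts of signs are not separate observations. Over all genes the medians were -0.01 and -0.03. Ccnd2 differed by 0.06 ± 0.18 with control siRNA, with an interval of -0.36 to 0.48, and by -0.11 ± 0.18 with FOXL2 siRNA. Ccnb1 differed by 0.20 and 0.01, Pcna by 0.13 and 0.10, and Mki67 by 0.05 and -0.01. With control siRNA both E2 arrays of Ccnb1 and of Pcna lay above both vehicle arrays, though neither gene passed the test. The 2 arrays per group leave wide intervals: for Ccnd1 from -0.96 to 1.19 with control siRNA.

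**Figure D4:**
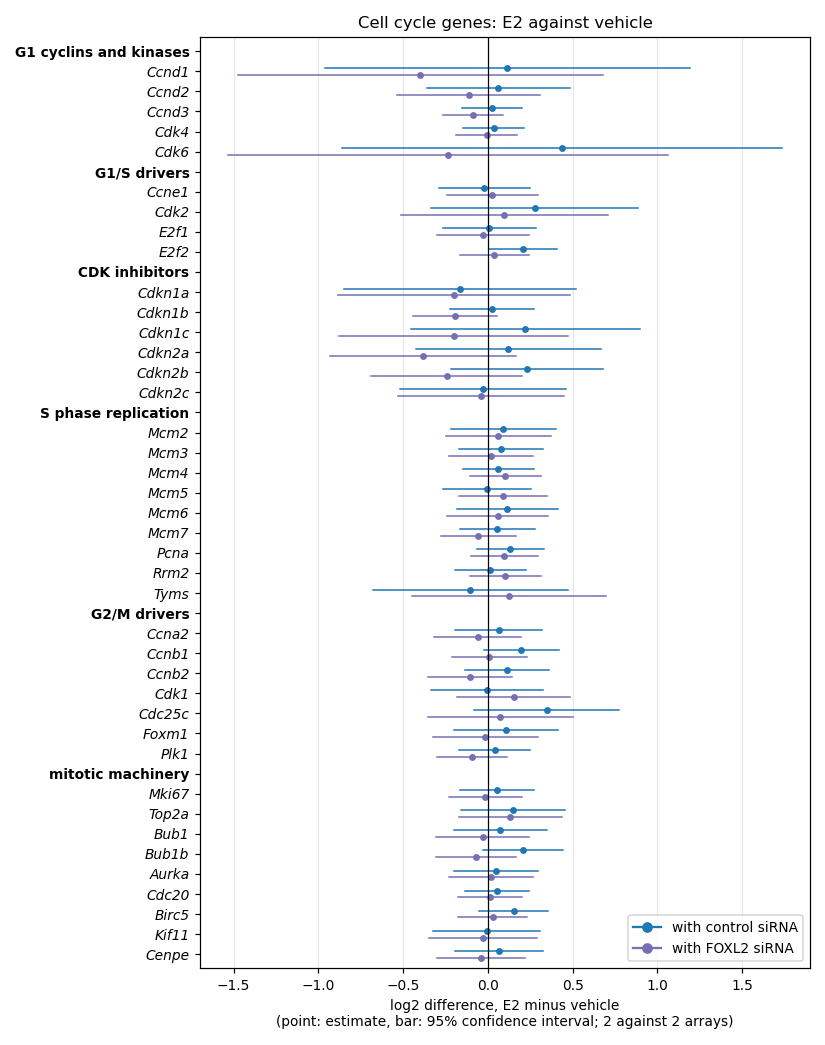
Log2 difference between E2 and vehicle for the 40 tested members, with control siRNA in blue and FOXL2 siRNA in purple, points for the estimates and bars for 95% confidence intervals (2 against 2 arrays). No member was called with either siRNA, and for 39 of 40 members both intervals contain 0, the exception being E2f2 with control siRNA.

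The E2 differences with the 2 siRNAs were also compared directly. This is the test of whether the siRNA difference changed with E2 only if the vehicle and E2 labels hold, which was not tested. No member was called (0 of 40, beside 0.243% of all genes), and none had an unadjusted p below 0.05, beside 4.89% of all genes. The replicate block gave 0 of 40, beside 2.12%. The E2 difference was higher with FOXL2 siRNA for 6 of 40 members, beside 7110 of 15645 genes, and for none of the 5 G1 cyclins and kinases, 6 CDK inhibitors and 9 tested mitotic genes. With 1 array left out, however, 24 of 40 members changed sign in this comparison. Cdkn2b had the difference -0.47 ± 0.27, Cdkn2a -0.50 ± 0.33 and Ccnd1 -0.51 ± 0.65. The interval for Cdkn2b, -1.10 to 0.16, shows that a lessened response in E2 was not detectable, not that it was absent.

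Other genes of the cell cycle were examined by 4 further lists holding 99 genes, all tested. Over both treatments 13 of 99 were called with FOXL2 siRNA (6 higher and 7 lower), a share of 13.1% beside the 12.6% of all genes. The list of checkpoint and arrest genes had 6 of 21 called, the other G1 and G1/S genes 2 of 17, other replication genes 3 of 26 and other mitotic genes 2 of 35. These lists were chosen with earlier results of the data known, so a share above that of all genes is not evidence about a list. With the replicate block 29 of 99 were called (11 higher and 18 lower), beside 27.6% of all genes.

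The growth arrest and DNA damage gene Gadd45g was the most changed gene of these lists. It read 13.42, 13.66, 13.37 and 13.94 with control siRNA and 14.89, 15.36, 14.54 and 15.28 with FOXL2 siRNA, a difference of 1.42 ± 0.20 (adjusted p = 0.0038). All FOXL2 siRNA arrays were above all control arrays. Its relative Gadd45b rose by 0.89 ± 0.09 (adjusted p = 0.0011), the antiproliferative gene Btg2 by 0.52 ± 0.08 (adjusted p = 0.0065) and the stress kinase gene Plk3 by 0.42 ± 0.08 (adjusted p = 0.012). Not all brakes rose, however. Foxo1, the forkhead factor that restrains the cycle in the absence of growth factors, fell by 0.83 ± 0.15 (adjusted p = 0.012), and Btg1 fell by 0.58 ± 0.06 (adjusted p = 0.0014). Rb1, the retinoblastoma gene through which the D-type cyclins act, fell by 0.43 ± 0.09 (adjusted p = 0.017), and the centrosome kinase gene Nek2 by 0.42 ± 0.10 (adjusted p = 0.035).

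With vehicle alone, 7 of 99 were called (6 higher and 1 lower), a share of 7.07% beside 6.56% of all genes. Among them, Gadd45g (1.59), Gadd45b (1.10), Btg2 (0.65) and the ribonucleotide reductase gene Rrm1 (0.49) were higher and Foxo1 (-1.20) lower. With E2, 3 of 99 were called, a share of 3.03% beside 4.38% of all genes: Gadd45b (0.67) higher, and Btg1 (-0.78) and Rb1 (-0.64) lower. None of the 99 genes was called in an E2 comparison. An unadjusted p below 0.05 was seen for 4 with control siRNA, beside 4.58% of all genes, and for 1 with FOXL2 siRNA, beside 3.06%. With the replicate block Foxo1 passed for the difference between the E2 effects (1 of 99, beside 2.12% of all genes).

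Markers of cell types moved with the siRNA label as well. The counts called over both treatments stand beside 12.6% of all genes. Of the Sertoli cell markers, Sox9, Sox8 and Dhh were called higher (3 of 5 tested), and the log2 of their list's summed level was 11.2 to 11.7 on the control arrays and 12.2 to 12.7 on the FOXL2 siRNA arrays. Amh, which is on both the Sertoli and granulosa lists, was not well above background. Of the granulosa markers, Fst and Esr2 were called lower (2 of 8 tested), while the summed level was 16.8 to 17.0 and 16.9 to 17.2. No marker of theca and stroma (0 of 4), macrophages and leukocytes (0 of 5), endothelium (0 of 2) or oocytes (0 of 2) was called, and Ptprc, Lyz2, Cdh5 and Tek were at background throughout. Yet 3 of the 4 tested theca and stroma markers had an unadjusted p below 0.05, beside 4195 of 15645 genes, with a list median of 0.54. Col1a1, a collagen gene, read 8.40 to 9.40 with control siRNA and 9.51 to 10.47 with FOXL2 siRNA, and was 1.10 ± 0.33 higher (adjusted p = 0.074). With the replicate block Col1a1, Cyp17a1 and Star passed (3 of 4), as did Csf1r (1 of 5), Kdr (1 of 2) and Ddx4 (1 of 2), all of them higher. The block also gave 5 of 8 granulosa markers (2 higher and 3 lower) and 5 of 5 Sertoli markers (4 higher and 1 lower), beside 27.6% of all genes. The part of these shifts in the cell cycle differences was not tested.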

How the data were processed

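Total RNA (50 ng per array) was amplified with Cy3 label, and 8 one-colour Agilent mouse arrays on 1 slide were hybridised with it and scanned on 1 day. Spot intensity values were deposited by the authors as Agilent Feature Extraction 11.5.1.1 output, in which the processed signal is already corrected for background; the array design names build mm9. The authors also deposited a table of log2 values per Entrez gene, scaled to each array's 75th percentile; its scale and direction were settled against the scanner values, with which it agreed within 0.001 for nearly all genes once a constant per array was removed. Every one of its columns was mapped to a sample. Reads were not counted, so precision is set by the number of arrays and not by depth.

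Of 62976 spots per array, 3671 control spots and 39 flagged probes were left out and none of the others was saturated, leaving 55642 probes. Processed signals were scaled to the 75th percentile, probes of one Entrez ID were averaged, genes whose median scaled signal reached 10 were retained (15645 of 24235; 22352 of all have a name in the reference table), and log2 was taken. The 4 group means were fitted with limma 3.58.1 in R 4.3.3 (lmFit, eBayes with an intensity trend, 4 residual degrees of freedom), 7 comparisons were drawn and p-values were adjusted by Benjamini-Hochberg over all genes kept. The script was tested on simulated data.

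All 42 members are accounted for by role. Values on every array are given for the called members and for Mki67, Ccnd1, Ccnd2, Cdkn1a, Cdkn1b, Cdkn2b, Cdk1, Ccnb1 and Pcna; of the other cell cycle lists, up to 4 called genes per direction and comparison, by size, are named. The members and all lists were chosen with earlier results of these data known.

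Replicate numbers in the labels stand for pools of mice. Same-numbered arrays deviated together from their group means (correlation 0.33 to 0.45 in all 6 pairs of groups). The main fit did not use this pairing. A second fit took the numbers as pairs, through a replicate block, and is given where it changes a call. The FOXL2 and E2 comparisons share control arrays. The alternatives were another background correction (normexp), quantile normalization, other filters, the brightest probe, the authors' table, no trend, only the groups compared, the fold rule of the study and each array left out. Normexp was run on median signals, since the files used here hold no mean signal. Promoters are RefSeq's (GRCm38.p6).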

Additional observations from a re-analysis of the deposited data

How the results depend on the processing

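Of the counts of called members, those over both treatments and those of the E2 comparisons kept within 1.5 times their value in every alternative run, and the E2 counts and the count for the difference between E2 effects were 0 throughout. The 4 members called with vehicle became 2 without the intensity trend and 7 with the replicate block, and 0 to 5 with 1 array left out. The 2 members called with E2 became 1 with normexp background correction, without the filter on dim genes or with the brightest probe, 0 without the intensity trend, with only the groups compared or under the fold rule of the study, 7 with the replicate block, and 0 to 2 with 1 array left out. Over both treatments the count was 5 to 8 with 1 array left out. For members, the replicate block changed no other call than those given above. Of 43 results on single genes followed through every alternative (the 7 called members in the 3 siRNA comparisons, 6 other members over both treatments and 16 results of the other lists), 60 calls were lost and 5 gained with 1 array left out, and 23 lost and 9 gained in the other alternatives, counted over the settings. Cdkn1a, which was not called, changed sign over both treatments with 1 array left out (range -0.249 to 0.0875), as did 6 other members that were not called (Cdkn1c, Cdk2, Ccnb2, Mcm2, Mcm4 and Aurka). Over all genes, 1966 were called over both treatments and 4325 with the replicate block. With vehicle 1027 were called, 636 without the intensity trend, 587 with only the groups compared and 2935 with the block. With E2 686 were called, 379 without the trend and 2329 with the block. With 2 arrays per group, differences below about the interval widths given above were not detectable.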

Other observations

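Single probes of 2 members went apart from their gene. One of 3 Cdkn1a probes was lower with FOXL2 siRNA over both treatments (-0.45, adjusted p = 0.025), and its 4 FOXL2 siRNA arrays were below the 4 control arrays, whereas the other probes differed by -0.07 and -0.18 (adjusted p = 0.89 and 0.75). One of 3 Birc5 probes was lower over both treatments (-0.42, adjusted p = 0.038), with -0.76 in vehicle (adjusted p = 0.026) and -0.09 in E2 (adjusted p = 0.86), and with differences of -0.14 and -0.09 for the others over both treatments (adjusted p = 0.30 and 0.47).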
